A study of Mus musculus with 6 samples.

Results

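The 10 genes described here are *Atf4* and 9 genes of the ATF4 arm of the integrated stress response, measured in livers of mice with and without *Txndc5*: *Atf4*, *Atf5*, *Ddit3*, *Trib3*, *Chac1*, *Asns*, *Psat1*, *Phgdh*, *Sesn2* and *Nupr1*. They were taken by gene symbol from a table of 16123 genes, and all 10 were found in it, each on 1 row and annotated as protein coding. Between *Txndc5*-deficient (KO) and wild-type (WT) livers they did not share a direction. *Asns* was 1.80-fold and *Atf5* 1.44-fold higher in WT, *Sesn2* was 1.45-fold higher in KO, and the mRNA of *Atf4* itself had a normalized value of 826 in WT and 872 in KO. Reads per library could be worked out for 6 of the 10 genes, and none of these 6 had an adjusted p under 0.05 by limma.

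PolyA RNA of the liver was sequenced in 3 libraries of each genotype, each made from a pool of male mice that were 2 months old at the start of the diet. The methods give 3 mice per pool, but the sources used here differ on how many animals entered the pools. By the labels, WT mice were of strain C57BL/6Rj and KO mice of strain C57BL/6JRj-Txndc5<em2Mdnp>/Ciba, a line from a single founder in which exon 3 of *Txndc5*, a protein disulfide isomerase of the endoplasmic reticulum, was removed by CRISPR/Cas9 in all tissues. By the paper, the males of both genotypes were born of heterozygous crosses, which the strain labels do not show. Both genotypes received a purified chow diet for 4 weeks and a fast of 16 h before sacrifice, so that fasted liver is the only state compared. The libraries held 44040160 to 46050030 clean reads. For each gene the authors deposited 1 value per genotype, on the scale of reads divided by a size factor. The midpoint of both values is the mean over all 6 libraries, but the values are not the means of each genotype's reads, and their ratio lay closer to 0 than that of the reads in each of the 6 genes below with reads per library. For *Asns* the log2 ratio was -0.85 from the values and -1.07 from the reads, for *Nupr1* -0.38 and -0.69, and for *Psat1* 0.27 and 0.60. These values are given below as the authors' values, with no error, since they hold none. *Txndc5* had 2697 in WT and 90.8 in KO, which was 29.7-fold lower in KO.

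In the integrated stress response, protein kinases such as PERK and GCN2 phosphorylate the translation factor eIF2 when the endoplasmic reticulum is stressed or amino acids run short. General translation then falls, while upstream open reading frames in the *Atf4* mRNA let more ATF4 protein be made, so that the response is set largely by translation and the level of *Atf4* mRNA is not a measure of the protein. ATF4 binds composite C/EBP-ATF elements as a dimer with other bZIP factors and raises genes of amino acid synthesis, amino acid transport and redox balance, together with regulators such as CHOP and TRIB3. In liver this arm is known for its answer to dietary lack of amino acids and to misfolded secretory proteins.

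Sequence near the start sites was examined because a short form of the composite element is shared by part of the list. The letters TGATGNAA, searched on both strands from 250 bases before to 50 bases after each RefSeq start (GRCm38.p6), were found for 4 of the 10 genes (12 promoters in all), *Trib3*, *Chac1*, *Asns* and *Nupr1*, and for 4.511% of all 27025 genes (3.969% of 32851 promoters). The stricter letters TGATGCAA, each match of which is also a match of the first motif, were found for *Chac1* and *Nupr1* and for 1.032% of all genes (0.895% of promoters). The 4 stretches are shown 5′ to 3′ on the strand of the gene, with the matching letters in capitals, so that a match on the other strand reads as its reverse complement. They lie at chr2:119351013-119351092 (plus strand, *Chac1*), chr6:7693214-7693243 (minus strand, *Asns*), chr7:126625562-126625591 (minus strand, *Nupr1*) and chr2:152344028-152344057 (minus strand, *Trib3*).
Chac1: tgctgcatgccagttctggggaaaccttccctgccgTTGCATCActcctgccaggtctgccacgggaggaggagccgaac
Asns: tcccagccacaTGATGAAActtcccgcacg
Nupr1: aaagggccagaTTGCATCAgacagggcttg
Trib3: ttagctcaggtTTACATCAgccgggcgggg
The first base of the match lay at position -193 for *Chac1*, -110 for *Nupr1*, -23 for *Asns* and 15 for *Trib3*. These positions are counted from the RefSeq start of that window, which for all 4 genes differs from the outermost start of the annotated gene. The match of *Trib3* lies before the annotated gene. The stretches of *Asns* and *Nupr1* lie wholly in exons of annotated transcripts, that of *Trib3* in part and that of *Chac1* not. A match of letters is a description of these windows and not a measured binding site. The 4 genes that carried the letters had log2 ratios of KO over WT of 0.02 (*Chac1*), -0.38 (*Nupr1*), -0.85 (*Asns*) and -0.13 (*Trib3*), while the other 6 ran from -0.52 (*Atf5*) to 0.54 (*Sesn2*).

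The 10 genes spanned a wide range of levels in the fasted liver. Per kilobase of the length given in the table, the mean of both genotypes was 10531 for *Atf5*, 486 for *Atf4*, 119 for *Trib3*, 79.0 for *Sesn2*, 49.8 for *Ddit3*, 22.3 for *Asns*, 12.9 for *Chac1*, 12.0 for *Nupr1*, 2.56 for *Phgdh* and 1.92 for *Psat1*. *Atf5* stood at the 99.1 percentile of all genes and *Atf4* at the 89.4 percentile. *Asns* was near the middle of the table at the 50.6 percentile, and the pair of serine synthesis genes was in its lower part, at the 26.1 percentile (*Phgdh*) and the 23.5 percentile (*Psat1*). For the 6 genes with reads per library (below *Sesn2* in this order), the ranges over libraries per kilobase of each pair of neighbours overlapped. The order within each such pair was thus not set apart from the spread, which does not hold for every pair farther apart.

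**Figure D1:**
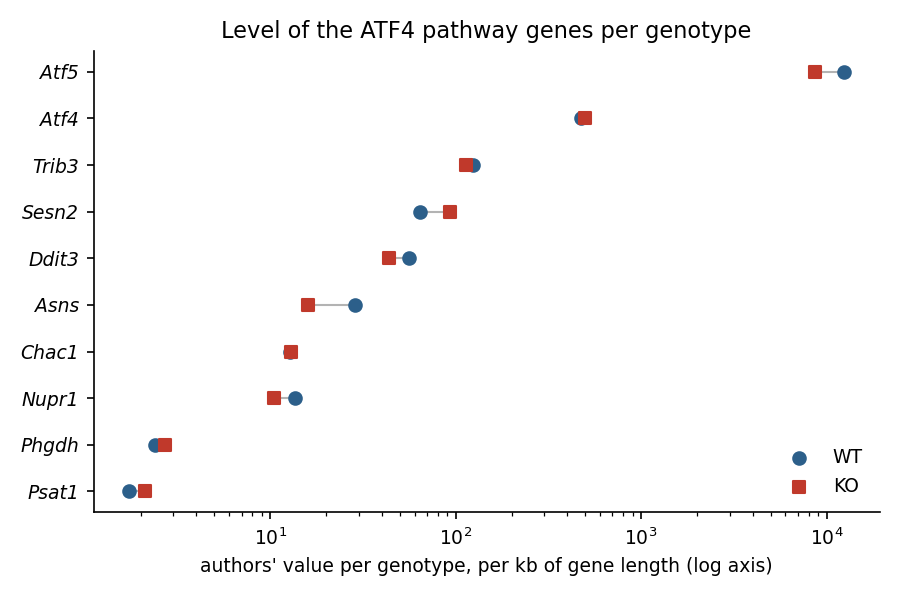
Authors' values per kilobase in WT and KO liver for the 10 genes, on a log10 axis, with 1 point per genotype and no error bars because the deposited table holds 1 pooled value per genotype. *Atf5* lies far above the others at 10531 on average and *Psat1* lowest at 1.92, and the gap between genotypes is small beside the range between genes.

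The genotypes were first compared by the log2 ratio of the authors' values, which has no replicate check. Of the 11367 genes whose mean value reached 10, 10.4% had a log2 ratio beyond 0.5 in either direction, with 2.48% higher and 7.9% lower in KO. Of the 10 stress response genes, 7 reached this mean value, and 1 of these lay above 0.5 and 2 below -0.5. Their median log2 ratio was -0.13, and that of all 11367 genes was -0.05. The 3 genes beyond the limit are one each of a transcription factor, a biosynthetic enzyme and a stress inducible regulator of growth signalling, and they did not share a direction.

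Among the transcription factors, *Atf4* (Gene ID 11911, chr15:80255184-80257541, plus strand, GRCm38) had an authors' value of 826 in WT and 872 in KO (log2 ratio 0.08). *Atf5* (Gene ID 107503, chr7:44812256-44816658, minus strand), a close relative of ATF4 that is also controlled by upstream open reading frames and is abundant in liver, had 22750 in WT and 15837 in KO (log2 ratio -0.52). Its ratio was just past the limit of 0.5, and centred on the median of all genes it was -0.48. The exons of *Atf5* share bases with *Il4i1* and *Nup62* on the opposite strand, and since a strand setting of the counting is not stated, reads of these genes cannot be told apart with certainty. The reads of *Atf4* and *Atf5* were too many to be worked out per library, so that no spread can be set beside either ratio.

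*Trib3* (Gene ID 228775, chr2:152337422-152344032, minus strand), a pseudokinase that binds AKT and ATF4 and is a classical ATF4 target, had 255 in WT and 234 in KO (log2 ratio -0.13). *Sesn2* (Gene ID 230784, chr4:132492032-132510501, minus strand), a leucine sensing inhibitor of mTORC1 signalling that is induced by ATF4, p53 and NRF2, had 173 in WT and 250 in KO (log2 ratio 0.54). It was the one gene of the 10 above the limit, against 2.48% of all genes. Neither gene could be resolved into libraries. The related sestrins had log2 ratios of -0.09 (*Sesn1*) and -0.37 (*Sesn3*), and the related pseudokinases 0.49 (*Trib1*) and 0.09 (*Trib2*). The 3 sestrins thus had no common direction in the pooled values.

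For weakly expressed genes the pooled values carry enough digits to return the whole reads of each of the 6 libraries, and this gave reads for 8060 of the 8081 genes whose normalized reads summed to 400 or less. The pool numbers of the libraries are not carried by these reads, and the libraries are therefore named by genotype and falling size factor, as KO-A, KO-B and KO-C (size factors 1.31, 1.04 and 0.886) and WT-A, WT-B and WT-C (1.22, 0.879 and 0.818). Libraries KO-A and WT-A stood apart from the others. Over the 3304 genes with a sum between 60 and 400, 40.1% were highest in the A library of both genotypes and 11.9% lowest, and the deviations of KO-A and WT-A from the mean of each gene had r = 0.47, against -0.54 to 0.12 for the other pairs. The part of this difference in the results below was examined with a term for the A libraries and without both of them. Ribosomal RNA took 0.26 to 0.69% of reads in the 6 libraries. The libraries are separate samples by their labels and separate pools of mice by the methods, and each p-value below measures the spread between these pools.

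*Ddit3* (Gene ID 13198, chr10:127290829-127293753, plus strand) encodes CHOP, the C/EBP homologous protein that ATF4 induces and that promotes cell death when stress persists. It had 85, 29 and 15 reads in KO-A, KO-B and KO-C and 106, 48 and 12 reads in WT-A, WT-B and WT-C. Divided by the size factors, these were 64.8, 28 and 16.9 in KO and 86.5, 54.6 and 14.7 in WT. The groups overlapped over nearly their whole range, and in both genotypes the A library was highest and the C library lowest. The A library exceeded the mean of the other libraries 2.88-fold in KO and 2.5-fold in WT, so that *Ddit3* varied more within a genotype than between genotypes. The means were 36.6 ± 25 (SD, n = 3) in KO and 51.9 ± 36 (SD, n = 3) in WT, with p = 0.7 by a two-sided exact permutation test, whose smallest p with 3 libraries against 3 is 0.1. By limma the log2 difference of KO minus WT was -0.39 (SE 0.716, 95% confidence interval -2.0 to 1.23, adjusted p = 0.999). The direction rested on single libraries, being 0.14 without WT-A and 0.04 without KO-C, though it was -0.37 without both A libraries. A *Ddit3* difference of the size seen was not detectable at this spread.

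*Chac1* (Gene ID 69065, chr2:119351229-119354381, plus strand), a glutathione degrading enzyme downstream of ATF4 and CHOP, had 24, 18 and 23 reads in KO-A, KO-B and KO-C and 20, 25 and 13 reads in the WT libraries in the same order. The normalized reads were 18.3, 17.4 and 26.0 in KO and 16.3, 28.4 and 15.9 in WT. The groups overlapped, with the highest and the lowest value both in WT, and the A libraries did not stand out as they did for *Ddit3*. The mean of 20.5 ± 4.72 (SD, n = 3) in KO was almost that of 20.2 ± 7.12 (SD, n = 3) in WT, with p = 1 by the exact permutation test. The limma log2 difference was 0.05 (SE 0.421, 95% confidence interval -0.90 to 1.0, adjusted p = 0.999), and its sign turned without KO-C (-0.12), without WT-A (-0.07), without WT-C (-0.09) and without both A libraries (-0.0025).

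*Asns* (Gene ID 27053, chr6:7675169-7693254, minus strand), asparagine synthetase, is the textbook gene of the amino acid response and had the lowest ratio of the 10. It had 23, 48 and 17 reads in KO-A, KO-B and KO-C and 52, 42 and 69 reads in WT-A, WT-B and WT-C. The normalized reads were 17.5, 46.3 and 19.2 in KO and 42.5, 47.8 and 84.4 in WT. KO-A and KO-C lay below every WT library, while KO-B lay within the WT range, so that the groups overlapped by 1 library. The means were 27.7 ± 16.2 (SD, n = 3) in KO and 58.2 ± 22.8 (SD, n = 3) in WT, with p = 0.2 by the exact permutation test. By limma the log2 difference was -1.12 (SE 0.507, 95% confidence interval -2.26 to 0.03, unadjusted p = 0.0549, adjusted p = 0.999).

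Of all 3304 genes in this fit 1.91% had an unadjusted p under 0.05, and of the 3 stress response genes in it, *Ddit3*, *Chac1* and *Asns*, none had. *Asns* was the gene that lay nearest, and its unadjusted p by limma fell to 0.0284 with a term for the A libraries, to 0.0446 with a trend of the variance on level, to 0.0189 without KO-B and to 0.0418 without WT-A. The shares of all genes with an unadjusted p under 0.05 in these 4 settings were 7.32%, 1.63%, 0.787% and 3.66%. Without both A libraries the *Asns* difference was -1.06 with an unadjusted p of 0.107 by limma. With each library rescaled to the same median the unadjusted p of *Asns* by limma rose to 0.101. The *Asns* difference kept its sign under every setting run, from -1.55 without KO-B to -0.82 without WT-C, and its adjusted p by limma or edgeR lay between 0.618 and 0.9999 over these settings. The fit held only weakly expressed genes, so that *Txndc5* and other strongly expressed genes were not in it. Of its 3304 genes a single one passed an adjusted p of 0.05 by limma, which is 0.0303%, and 0 by edgeR. It was *Moap1*, an activator of apoptosis named here after its value was seen, with a log2 difference of -4.55.

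**Figure D2:**
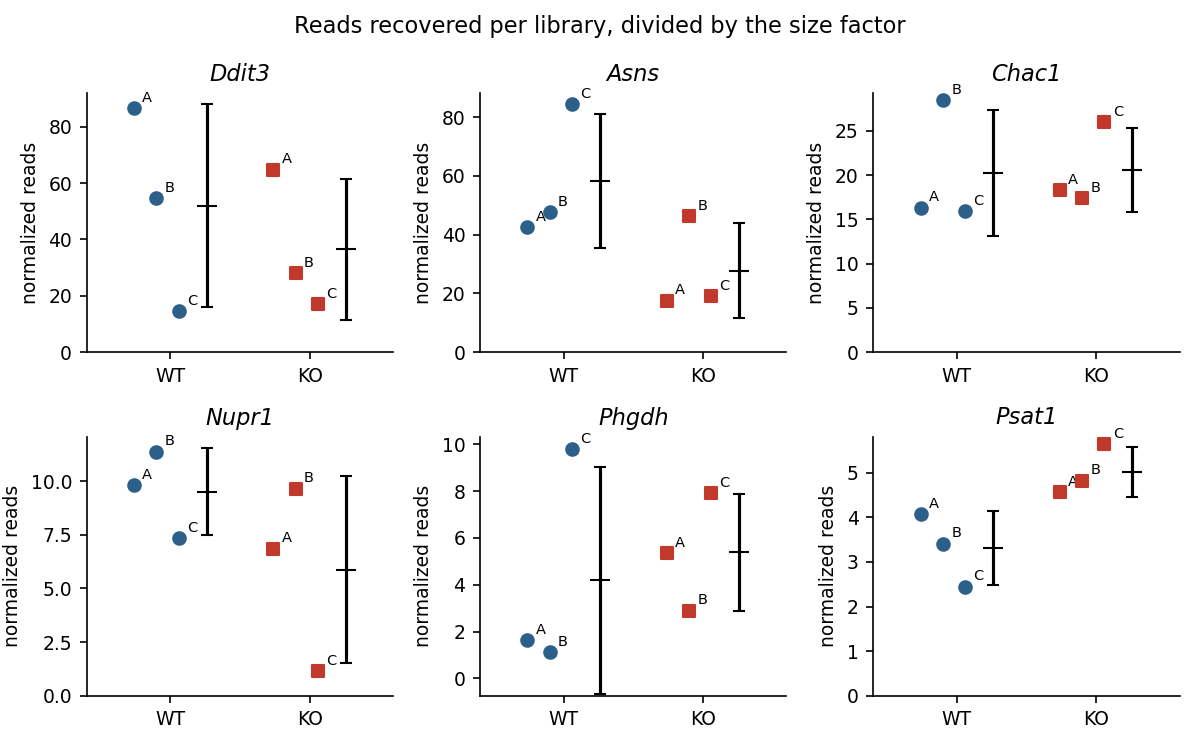
Normalized reads (reads divided by the size factor) of the 6 genes with recovered reads in each library, with 1 lettered point per library, WT and KO side by side, a scale of its own per panel, and bars for the mean ± SD of 3 libraries. *Asns* shows 2 KO points at 17.5 and 19.2 below all WT points and another at 46.3 among them, and *Ddit3* shows the A library highest in both genotypes.

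The serine synthesis genes rested on few reads in these livers. *Phgdh* (Gene ID 236539, chr3:98313170-98339990, minus strand) and *Psat1* (Gene ID 107272, chr19:15904678-15947337, minus strand) encode the first and the second enzyme of the pathway from 3-phosphoglycerate to serine, and both are ATF4 targets. *Psat1* had 6, 5 and 5 reads in the KO libraries A to C and 5, 3 and 2 reads in the WT libraries A to C. The normalized reads of *Psat1* were 4.57, 4.83 and 5.65 in KO and 4.08, 3.41 and 2.45 in WT. The groups did not overlap, with every KO library above every WT library, though the nearest pair of them held 6 and 5 reads. The means of *Psat1* were 5.01 ± 0.561 (SD, n = 3) and 3.31 ± 0.823 (SD, n = 3), with p = 0.1 by the exact permutation test, the smallest it can give. Of the 26 *Psat1* reads 61.5% were in KO (95% exact Clopper-Pearson interval 40.6 to 79.8%, counting error only), and the KO libraries held 52.5% of the summed size factors, which lies inside the interval.

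*Psat1* was the only one of the 6 resolved genes whose groups did not overlap. Of the 3 with a sum between 60 and 400 none was without overlap, against 5.69% of all genes in that range (3.06% with KO higher). With a sum between 20 and 60, where *Psat1*, *Phgdh* and *Nupr1* lie, 6.8% of genes did not overlap (3.26% with KO higher). Among all 4686 genes whose normalized reads summed to between 20 and 400, 6.02% did not overlap in either direction and 3.12% were higher in every KO library. *Phgdh* had 7, 3 and 7 reads in KO-A, KO-B and KO-C and 2, 1 and 8 reads in WT-A, WT-B and WT-C. Its normalized reads were 5.33, 2.90 and 7.90 in KO and 1.63, 1.14 and 9.78 in WT, and the groups overlapped because WT-C held the highest value of all. The means of *Phgdh* were 5.38 ± 2.5 (SD, n = 3) and 4.18 ± 4.85 (SD, n = 3), with p = 0.8 by the exact permutation test, and without KO-C, WT-A or WT-B the difference turned negative, by -0.0692, -0.0821 and -0.330 normalized reads. *Phgdh* reads are uncertain for a further reason, since 11 other annotated genes, among them *Phgdh-ps1*, are at least 95% identical to it over at least 100 bases, and the longest match has 1608 bases. No such copy was found for the other 9 genes.

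*Nupr1* (Gene ID 56312, chr7:126623249-126630861, minus strand), a small chromatin protein induced with CHOP under stress, had 9, 10 and 1 reads in KO-A, KO-B and KO-C and 12, 10 and 6 reads in WT-A, WT-B and WT-C. The normalized reads of *Nupr1* were 6.86, 9.65 and 1.13 in KO and 9.80, 11.4 and 7.34 in WT. The groups overlapped, KO-B being above WT-C and just below WT-A, and the low KO mean leaned on the single read in KO-C. The means were 5.88 ± 4.35 (SD, n = 3) and 9.50 ± 2.03 (SD, n = 3), with p = 0.2 by the exact permutation test. In a limma fit with no lower limit on the sum, the log2 differences were 0.49 for *Psat1* (95% confidence interval -0.52 to 1.51), 0.62 for *Phgdh* (-0.86 to 2.10) and -0.88 for *Nupr1* (-2.28 to 0.52), each with an adjusted p of 0.964. In that fit 3.31% of all 8060 genes had an unadjusted and 0.0124% an adjusted p under 0.05, and *Psat1*, *Phgdh* and *Nupr1* had 0.307, 0.376 and 0.193.

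**Figure D3:**
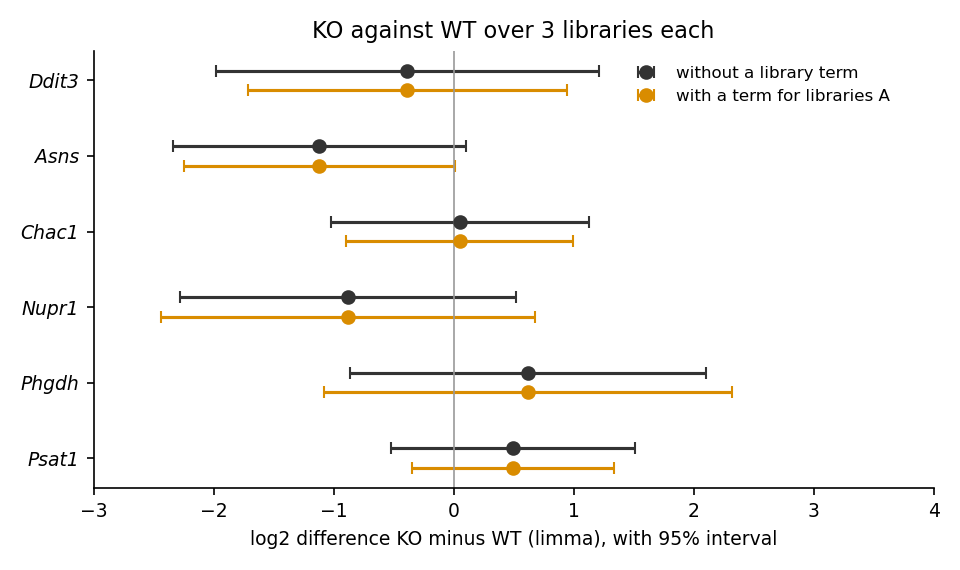
Log2 difference of KO minus WT by limma with its 95% confidence interval for the 6 genes with reads per library, in the fit with no lower limit, without (dark) and with (orange, a fit chosen after seeing the data) a term for the A libraries. *Asns* lies farthest to the left at -1.12 and *Phgdh* farthest to the right at 0.62, and every interval drawn crosses 0, although the *Asns* interval with the term was -2.09 to -0.15 in the fit of sums from 60 to 400.

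The 6 genes with reads per library did not rise and fall together over the libraries. Of their 15 pairs, 4 had a positive and 11 a negative Pearson's r over the 6 libraries on the log2 scale, with a median of -0.22 and a range from -0.82 (*Asns* with *Psat1*) to 0.58 (*Asns* with *Nupr1*). These correlations are given as a description, since the points share size factors and the lowest genes rest on 1 to 12 reads. The mean profile of the 6 genes, each centred on its own mean, was lowest in KO-C at -0.36 and between 0.02 and 0.13 in the other 5 libraries. In KO-C *Nupr1* had its single read and *Ddit3* its lowest KO value, while *Chac1*, *Psat1* and *Phgdh* had their highest KO values there. The 3 genes most like this profile over the 6 libraries were *AY512931* (r = 0.99), *6330408A02Rik* (r = 0.99) and *Snhg8* (r = 0.98), and 46 of 3301 genes (1.39%) had r above 0.9.

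Upstream of ATF4, all 17 genes listed of the eIF2 kinases, eIF2, its exchange factor eIF2B and its phosphatase had a mean value of 10 or more. None lay above a log2 ratio of 0.5 and 3 lay below -0.5, with a median of 0.01. Of all genes that reached this mean value, 2.48% lay above 0.5 and 7.9% below -0.5. *Eif2ak3* (PERK), the kinase of the endoplasmic reticulum, had 77.1 in WT and 95.5 in KO (log2 ratio 0.31), and *Eif2ak4* (GCN2), the sensor of uncharged tRNA, had 0.09. The GCN2 kinase had normalized reads of 59.4, 52.1 and 45.2 in KO and 69.4, 18.2 and 57.5 in WT, so that its groups overlapped. The 3 lower genes were *Eif2ak2* (-0.67), which encodes the kinase PKR that senses double-stranded RNA, *Impact* (-0.65), an inhibitor of GCN2, and *Eif2s1* (-0.56), the phosphorylated subunit of eIF2, which was named after its value was seen. The highest ratio was that of *Ppp1r15b* (0.41), the constitutive partner of the eIF2 phosphatase, and its stress inducible partner *Ppp1r15a*, an ATF4 target, had 0.05. Of the 2 genes of this list in the limma fit, none had an unadjusted p under 0.05, against 1.91% of all genes in it. *Impact* had normalized reads of 29.0, 10.6 and 16.9 in KO and 70.2, 18.2 and 18.3 in WT, which overlapped. *Eif2ak2*, which was not in the fit, had 89.9, 34.8 and 30.5 in KO and 130, 75.1 and 69.7 in WT, which also overlapped.

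Further ATF4 targets and partners numbered 29, of which 26 had a mean value of 10 or more. *Gadd45a*, a growth arrest gene, lay above 0.5 (0.57), none lay below -0.5, and the median was -0.02. Of all genes that reached this mean value, 2.48% lay above 0.5 and 7.9% below -0.5. The hormone *Fgf21*, a marker of both fasting and the ATF4 response in liver, had 577 in WT and 449 in KO (log2 ratio -0.36). The stress cytokine *Gdf15* had 138 and 116 (-0.25), and the transcription factors *Atf3* and *Cebpb* both had -0.06. *Ddit4*, an inhibitor of mTORC1, had -0.14. The lowest ratios of this list were those of *Sesn3* (-0.37) and *Fgf21*, and the highest besides *Gadd45a* that of *Trib1* (0.49). *Gadd45a* had normalized reads of 10.7, 28 and 13.5 in KO and 10.6, 14.8 and 2.45 in WT, which overlapped. Of the 7 genes of this list in the limma fit none had an unadjusted p under 0.05, against 1.91% of all genes in it.

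The serine, glycine, one-carbon and proline list had 13 genes, of which 9 had a mean value of 10 or more, with a median of 0.02. The shares of all genes that reached this mean value were 2.48% above 0.5 and 7.9% below -0.5. *Mthfd1l*, a mitochondrial enzyme of folate metabolism, lay above 0.5 with a log2 ratio of 0.82, and none lay below -0.5. Its normalized reads were 10.7, 20.3 and 24.8 in KO and 6.53, 7.96 and 9.78 in WT, every KO library being above every WT library. The same held for 3.06% of all genes with a sum between 60 and 400. The limma log2 difference of *Mthfd1l* was 1.05 (SE 0.443, unadjusted p = 0.0426, adjusted p = 0.999), and it was 1 of 3 genes of the list tested. Of all genes in this fit 1.91% had an unadjusted p under 0.05. *Mthfd2*, a neighbour of *Mthfd1l* in the pathway and an ATF4 target, had 3.05, 5.79 and 6.77 in KO and 1.63, 2.27 and 1.22 in WT. These few reads were again without overlap, as for 3.26% of all genes with a sum between 20 and 60, but under the limit of the fit. *Psph*, which completes serine synthesis after *Phgdh* and *Psat1*, had 41.1, 72.4 and 62.1 in KO and 40.8, 37.5 and 59.9 in WT, with overlap and a log2 ratio of 0.29. *Aldh18a1*, an enzyme of proline synthesis, had a log2 ratio of 0.38.

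Of 10 amino acid transporters 9 were listed and 7 had a mean value of 10 or more. None lay beyond 0.5, the median was 0.14, and none of the 3 in the limma fit had an unadjusted p under 0.05. Of all genes that reached this mean value, 2.48% lay above 0.5 and 7.9% below -0.5, and 1.91% of all genes in the limma fit had such a p. *Slc7a5*, a transporter of large neutral amino acids, had 0.36, *Slc1a4* 0.20 and *Slc3a2*, the shared heavy chain, -0.14. *Slc7a11*, the cystine transporter, was listed at a low level, with 1.14 in WT and 1.21 in KO. The 20 cytosolic aminoacyl-tRNA synthetases, which ATF4 raises as a group in many cells, had a median of -0.05 with none beyond 0.5, from *Dars* (-0.34) and *Kars* (-0.22) to *Hars* (0.19) and *Nars* (0.27). For comparison with another arm of the response to unfolded proteins, the 15 targets of ATF6 and XBP1 had a median of 0.02. The chaperone *Hsp90b1*, an abundant resident of the endoplasmic reticulum, lay below -0.5 (-0.57) and *Dnajc3* had -0.28, while *Sel1l* (0.34) and *Hyou1* (0.20) were the highest of these 15 genes.

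**Figure D4:**
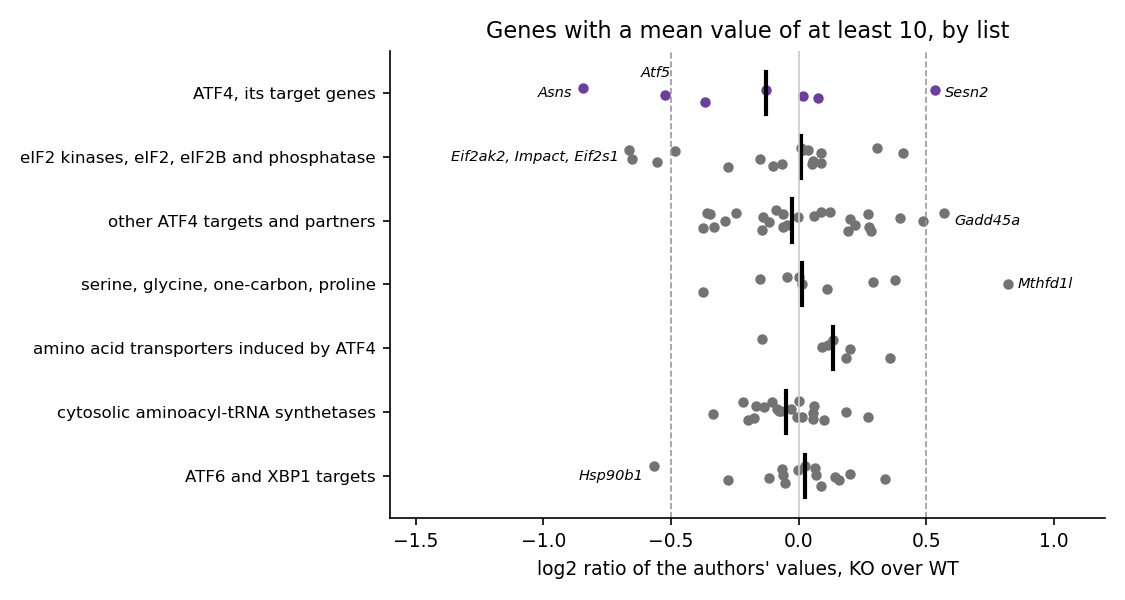
Log2 ratio of KO over WT from the authors' values for genes whose mean value reached 10, with 1 point per gene, 1 row per list, a black bar at the median and dashed lines at 0.5 and -0.5. The medians lie between -0.13 (the ATF4 genes described first) and 0.14 (amino acid transporters), and the named points are the genes beyond the dashed lines.

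**Figure D5:**
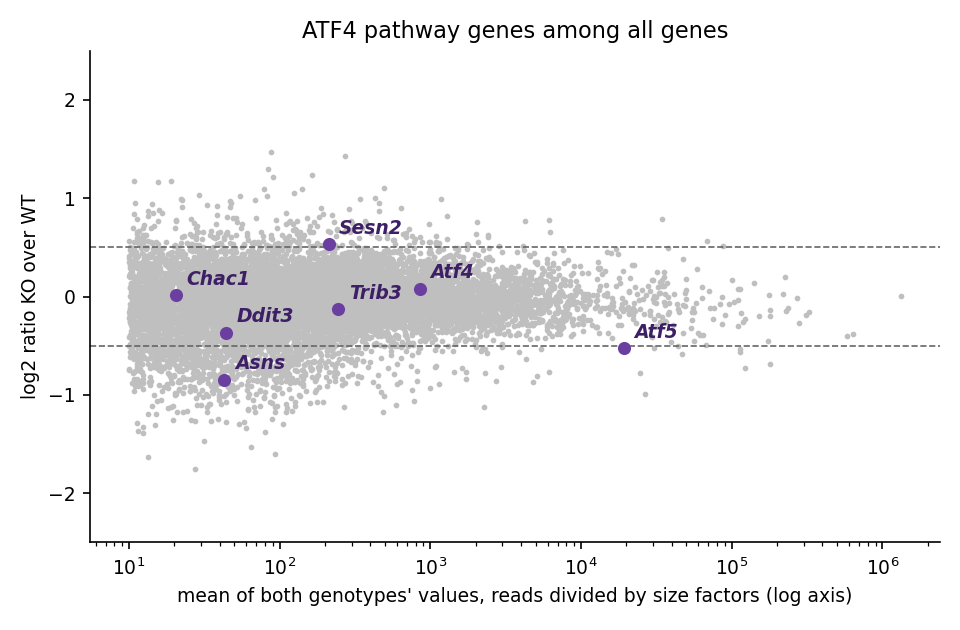
Log2 ratio of KO over WT against the mean of the authors' values (log10 axis) for the 11367 genes with a mean of at least 10 in grey, with the 7 stress response genes among them labelled. *Asns*, *Atf5* and *Sesn2* lie outside the dashed lines at 0.5 and -0.5, as do 10.4% of all genes shown, and *Txndc5* and 3 other genes lie beyond the axis limit of 2.5.

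All 7 hepatocyte markers were listed, *Alb* having 1329550 in WT and 1332580 in KO, and their summed value in KO was 0.939 of that in WT. The low hepatocyte sum leaned on *Apoa1*, which had 667133 in WT and 505509 in KO, and the median log2 ratio of the 7 was 0.003. The sum over all genes in KO was 0.937 of that in WT. In bulk liver RNA, fewer cells of a type and less RNA per cell cannot be told apart. From the authors' values, the sum of Kupffer cell markers in KO was 1.17 of WT (2 of 7 genes above 0.5). The sums were 0.968 for sinusoidal endothelium, 0.888 for stellate cells and 1.1 for cholangiocytes (1 of 5 above 0.5). Of the 6 stellate cell genes, *Col1a1* (0.76) and *Col3a1* (0.56) lay above 0.5 and *Dcn* (-0.503) below -0.5, with a median of 0.01. The low stellate sum leaned on *Dcn*, which had 1296 in WT and 915 in KO. The other sums were 0.744 for lymphocytes and NK cells (4 of 5 listed), 1.19 for neutrophils, 1.31 for exocrine pancreas and 1.52 for erythroid genes (3 of 5 above 0.5). Of the 11367 genes first compared, 2.48% lay above 0.5 and 7.9% below -0.5. For the lists whose listed genes could all be read per library, the reads gave other ratios. The exocrine pancreas sum was 14.5, 15.4 and 122 in KO-A, KO-B and KO-C and 15.5, 15.9 and 44.0 in the WT libraries. The ratio was 2.01, and it was 0.595 without KO-C. In KO-C the mean profile of the ATF4 genes was lowest, although *Chac1*, *Psat1* and *Phgdh* were higher there than in KO-A and KO-B. The pancreas genes *Try4* and *Pnlip* had no reads in KO and in WT, respectively. The neutrophil sum ranged from 13 to 18.1 in KO and from 6.53 to 12.5 in WT (ratio 1.42), and the sum of lymphocytes and NK cells from 28 to 48.6 and from 26.1 to 79.5 (ratio 0.645). The part of these cells in the ratios of the ATF4 genes was not tested.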

How the data were processed

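RNAseq of polyA RNA from liver pools was carried out by the authors' sequencing service. Per the labels the build was mm10 and the tools listed were HISAT2, Bowtie2, RSEM, StringTie, Cufflinks and GATK, without version or role. The authors deposited, for 16123 genes, an expression signal per genotype, scaled as reads over DESeq2 size factors. They also deposited per library counts of clean reads and the percent of ribosomal RNA. Columns with the authors' log2 ratio, p-values and calls were not used. Splicing event totals were not used.

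The midpoint of both values equals the mean of normalized reads over 6 libraries to 15 digits. Size factors came from values that 20 or more single-read genes share, and whole reads were enumerated for sums up to 600, within 2.5 times the rounding (5 times for sums up to 200). Among resolved genes with a log2 ratio beyond 0.5, all 1145 had reads in the direction of the values. This is no independent check, since that direction was required wherever several sets of reads fitted such a gene. On simulated data 1253 of 1258 genes summing to 400 or less were resolved, all rightly. Log2(normalized reads + 1) of the 3304 genes with sums from 60 to 400 was compared with limma 3.58.1 in R 4.3.3, two-sided, with Benjamini-Hochberg adjustment. Single genes were compared with exact permutation tests enumerated in Python 3.11.15, and the Clopper-Pearson interval came from SciPy 1.17.1. In simulated data of 3304 genes, of which 200 had a log2 change of 2, limma called 86 of these at the spread of these libraries. edgeR 4.0.16, pseudocounts, limits, rescaling, a library term and leaving out libraries were alternatives. Near-identical copies were sought with BLAST 2.17.0. Coordinates are from GENCODE (GRCm38).

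The genes and lists (regulators of eIF2, further ATF4 targets, serine and proline enzymes, transporters, tRNA synthetases, ATF6 and XBP1 targets, cell markers) were chosen with earlier results of these data known. Named were the 10 genes, *Txndc5*, 11 pathway genes set by name, up to 2 genes at either end of each list, and the 3 genes most like the mean profile. *Sesn1*, *Trib2*, *Alb*, *Eif2s1*, *Moap1*, *Try4* and *Pnlip* were added after values were seen.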

Additional observations from a re-analysis of the deposited data

How the results depend on the processing

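No paired analysis was possible because the genotypes share only 1 pool number and the recovered libraries carry none. With the settings of the report 1 of the 3304 weakly expressed genes in the fit had an adjusted p under 0.05 and 63 an unadjusted one by limma. The adjusted count was 0 under the limma trend, under a tolerance of 1 times the rounding, under edgeR and with no lower limit plus the term for the A libraries, 2 without both A libraries, and 0 to 1 with 1 library left out (0 without any one of KO-A, KO-B, KO-C, WT-B and WT-C). The unadjusted count was 116 with a lower limit of 20, 267 with none, 242 with the term, 432 with the term and no lower limit, 146 without both A libraries and 26 (without KO-B) to 152 (without KO-A) with 1 library left out. The last setting with 432 genes and the one without both A libraries were chosen after seeing the data. Of the 3 stress response genes in the fit, 1 (*Asns*) had an unadjusted p under 0.05 with the term and under the trend, and 0 to 1 with 1 library left out (*Asns* without KO-B or WT-A). With a lower limit of 20 the genes whose libraries did not overlap rose from 0 of 3 to 1 of 6 (*Psat1*). *Chac1* was -0.0025 without both A libraries. With 1 library left out, the log2 difference by limma ranged from -1.10 to 0.14 for *Ddit3*, -0.12 to 0.31 for *Chac1* and -1.55 to -0.82 for *Asns*. The difference in mean normalized reads ranged from -39.8 to -17.4 for *Asns*, -34.0 to 1.93 for *Ddit3*, -2.39 to 4.43 for *Chac1*, -5.51 to -1.25 for *Nupr1*, -0.330 to 3.99 for *Phgdh* and 1.27 to 2.09 for *Psat1*. The cause of these moves was not tested.

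Of the authors' values, 3 of 7 genes lay beyond a log2 ratio of 0.5 and 2 after centring on the median, against 10.4% and 10.1% of all genes. With the mean of recovered reads for resolved genes and the authors' values for the others, 4 of 7 did (*Ddit3* at -0.51), against 14.5% of all genes. *Atf5* and *Sesn2* kept the authors' values in this mixed setting. Depth limits *Psat1*, *Phgdh* and *Nupr1* to 26 to 48 reads in all, and *Atf4*, *Atf5*, *Trib3* and *Sesn2* have no replicate values here. Of the results for single genes, 42 kept their direction and stayed on the same side of an adjusted p of 0.05 (for exact permutation tests of p = 0.05, which 3 libraries against 3 cannot reach) with 1 library left out and 12 turned sign, and 38 did so and 1 turned under the other settings. Among these other settings, other limits on the sum, a tolerance of 1, the trend and the term for the A libraries left each log2 difference unchanged. No sign could turn in them. Only the pseudocount of 0.1, rescaling, edgeR and leaving out both A libraries could turn one. *Asns* crossed an unadjusted p of 0.05 as given above.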

Other observations

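Relatives of the stress response genes that were weak enough to be read per library also overlapped between genotypes. *Sesn1*, the p53-induced sestrin, had normalized reads of 69.3, 75.3 and 32.7 in KO-A, KO-B and KO-C and 105, 43.2 and 42.8 in WT-A, WT-B and WT-C. *Sesn3*, the sestrin induced by FOXO factors, had 36.6, 14.5 and 7.90 in KO and 46.5, 6.82 and 34.2 in WT. *Ddit4* had 50.3, 40.5 and 74.5 in KO and 79.2, 30.7 and 75.8 in WT, and *Atf3* had 16.8, 20.3 and 6.77 in KO and 17.1, 10.2 and 19.6 in WT. In each of these 4 genes the groups overlapped.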
